A study of Mus musculus with 8 samples.

Results

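The hearts of 5 wild-type mouse embryos at E18.5, late in gestation, were described gene by gene as a picture of the normal late fetal heart. They were the 5 samples labelled wild-type among the 8 samples of the series, and the other 3, from 2lox/2lox embryos, entered no value given here. The 2lox allele is a floxed allele of *Kdm1a* (*Aof2*), the gene of the histone demethylase Lsd1, and the wild-type embryos were littermates without it. Per the labels, each heart was taken intact from a pup of a timed mating, so its chambers and valves, and any vessel stumps and blood that came with them, were read together. Every heart gave its own total RNA and its own Affymetrix Mouse430 array, and hearts 1 to 5 are named by the replicate number in their labels. The labels state neither the sex nor the litter of an embryo.

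An array of this kind reads a transcript with a probe set, a group of short probes whose brightness is summarized as 1 value. The deposited values are log2 levels of 45101 probe sets, so that a step of 1 stands for a doubling of brightness. Of these probe sets, 34958 are annotated to 1 gene, 932 to several genes and 9211 to none. The level of a gene was taken from the brightest of the probe sets annotated to it alone, which gave 18194 genes, and is written below as the mean ± SD over the 5 hearts in log2 units. Probe sets differ in how well they bind, so a difference in level between 2 genes is a difference in brightness and not a count of molecules. The size of that limit was measured on the 9012 genes with more than 1 probe set of their own. Over 30406 pairs of probe sets of the same gene, the median difference was 1.27 and the 90th percentile 4.34.

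At E18.5 the mouse heart has its 4 chambers, beats against the resistance of the fetal circulation and draws much of its energy from glucose and lactate, while the machinery for burning fatty acids is being built up ahead of birth. Cardiomyocytes make up most of its mass and fill themselves with sarcomeres, the repeating units in which myosin thick filaments slide along actin thin filaments. Fetal cardiomyocytes still divide, and they use several isoforms of contractile and metabolic proteins that are exchanged for others after birth.

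Before levels are compared, the brightness of a gene that is not expected in heart is needed. The 70 odorant and vomeronasal receptor genes with a probe set of their own, which are used by sensory neurons of the nose, had a median level of 3.98 and ranged from 3.35 to 6.25. Their 95th percentile, 4.84, was taken as the reference level, above which a gene stood brighter than nearly all of these receptors. The 27 control probe sets for *Bacillus subtilis* transcripts gave means between 3.58 and 4.81, all under the reference level. Above it lay 12745 genes, 70.1% of all genes measured, and 12195 of them did so in each of the 5 hearts. At or under it in each heart were 4850 genes. Protein-coding genes lay above it in 12309 of 16469 cases (74.7%) and long non-coding RNA genes in 321 of 1355 cases (23.7%).

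**Figure D1:**
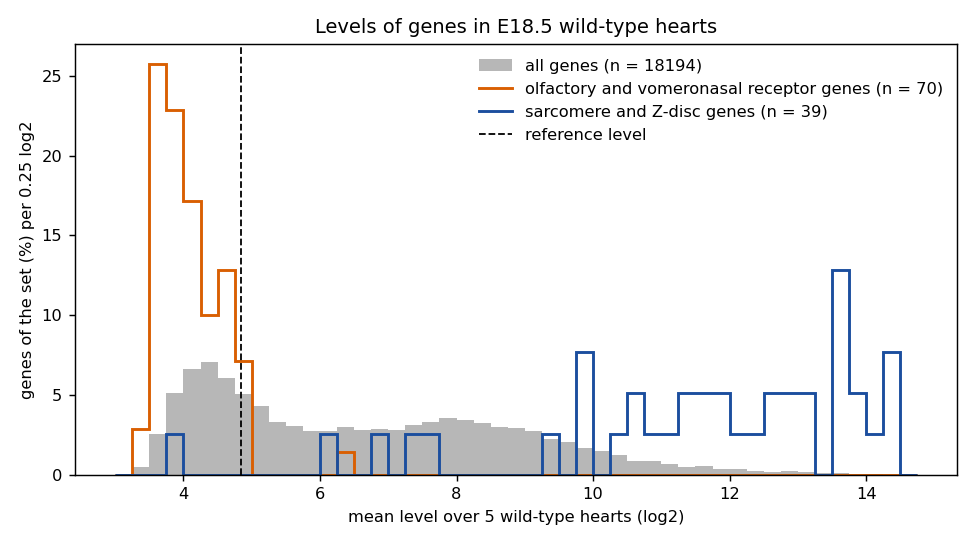
Distribution of mean levels over the 5 wild-type hearts (x axis, log2) as the percent of genes in each step of 0.25 (y axis), for all 18194 genes (grey), the 70 olfactory and vomeronasal receptor genes (orange) and 39 sarcomere and Z-disc genes (blue). The dashed line is the reference level of 4.84. Nearly all receptor genes sit to the left of it, and the sarcomere and Z-disc genes reach from 3.93 to 14.43 with most above 10.

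The levels formed a broad slope with few genes at the top. The median gene stood at 6.32, the lower quartile at 4.63 and the upper quartile at 8.32. Above 8 were 5341 genes (29.4%), above 10 were 1458 (8.01%), above 12 were 280 (1.54%) and above 14 were 10. The 3 brightest genes were all parts of the sarcomere. *Actc1*, the cardiac muscle actin of the thin filament, read 14.45, 14.47, 14.42, 14.35 and 14.44 in hearts 1 to 5, a mean of 14.43 ± 0.049. *Myl2*, the regulatory light chain of ventricular myosin, read 14.43, 14.41, 14.46, 14.28 and 14.42, a mean of 14.40 ± 0.068. *Myh7*, the slow or beta myosin heavy chain, read 14.32, 14.35, 14.38, 14.12 and 14.36, a mean of 14.31 ± 0.10. For each of the 3 the lowest value was that of heart 4, and *Actc1* and *Myl2* differed by less than the spread between hearts. Brightness near the top of the scale may be compressed as probes fill, and this was not tested.

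The rest of the 30 brightest genes fell into a few kinds. The sarcomere also gave *Myl3* (14.09 ± 0.086) and *Myl4* (13.75 ± 0.066), essential light chains of myosin, *Tnnt2* (13.96 ± 0.082), *Tnni1* (13.70 ± 0.052) and *Tnnc1* (13.66 ± 0.055), which form the calcium switch troponin, and *Tpm1* (13.75 ± 0.039), the tropomyosin that troponin moves. Protein synthesis gave the elongation factor *Eef1a1* (14.17 ± 0.031) and the ribosomal proteins *Rps29* (14.01 ± 0.017), *Rpl37a* (13.72 ± 0.024), *Rps28* (13.71 ± 0.030), *Rps14* (13.67 ± 0.012), *Rpl41* (13.64 ± 0.035), *Rpl4* (13.61 ± 0.034) and *Rps3a1* (13.60 ± 0.023). Mitochondrial respiration gave *Cox6a1* (13.88 ± 0.038) and *Cox5b* (13.67 ± 0.059) of cytochrome c oxidase, *Uqcrb* (13.81 ± 0.045) of the bc1 complex, *Atp5b* (13.71 ± 0.061) and *Atp5g3* (13.63 ± 0.026) of ATP synthase, and *Slc25a4* (13.69 ± 0.044), a carrier that trades ADP for ATP across the inner membrane. The others were *Tpt1* (14.19 ± 0.0098), *Tmsb10* (14.09 ± 0.012), a thymosin that binds actin monomers, *Actb* (13.71 ± 0.082), the cytoplasmic actin, *Gapdh* (14.01 ± 0.035) of glycolysis, *Nppa*, *Igf2* and *Hbb-y*.

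*Nppa* encodes atrial natriuretic peptide, a hormone that ventricles also make before birth. It read 13.82, 13.79, 13.79, 13.76 and 13.56 in hearts 1 to 5, and heart 5 lay under the other 4. *Igf2*, a fetal growth factor made mainly from the paternal copy, read 13.78, 13.79, 13.64, 13.78 and 13.66, a mean of 13.73 ± 0.075. *Hbb-y*, an embryonic beta-like globin of the first red cells, read 14.05, 13.71, 13.95, 14.38 and 13.94, with heart 4 highest and heart 2 lowest. Globin genes are near-identical copies, so the share of this signal that comes from other beta globins is uncertain.

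Among the 100 brightest genes, the dimmest of which stood at 12.94, 67 belonged to 4 kinds. Cytosolic ribosomal proteins gave 30 of their 50 measured members, nuclear subunits of oxidative phosphorylation, here all those found by symbol, 17 of 84, sarcomere and Z-disc genes 15 of 39, and glycolysis and pyruvate genes 5 of 24. Imprinted growth genes gave 3 of 15 and fibroblast and matrix genes 1 of 21 (*Col3a1*, a fibrillar collagen, 13.05 ± 0.29). No cardiac transcription factor, endothelial gene or cell cycle gene on the lists used here was among the 100. A ranking by genes leaves out transcripts whose probe sets are shared. Of the 100 brightest probe sets, 59 had 1 gene and 29 had several.

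Some of the shared probe sets are as bright as anything on the array. The brightest for the adult alpha globins *Hba-a1* and *Hba-a2* read 14.32, 13.81, 14.39, 14.55 and 14.48 in hearts 1 to 5, a mean of 14.31 ± 0.29. The 1 for the adult beta globins read 13.57, 12.89, 13.76, 13.92 and 13.93, a mean of 13.61 ± 0.43. In both, heart 2 was the lowest. The probe set shared by the imprinted RNA *H19* and its microRNA *Mir675* read at least 13.92, a mean of 13.96 ± 0.037. *Hba-a1* also has a probe set of its own, which was at 4.48 ± 0.068, under the reference level, so a level by this rule can miss a gene that shared probe sets read as bright.

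The promoters of a few of these genes are shown because *Actc1* was the brightest gene and *Nppa* the brightest on the list of secreted peptides, and because *Hba-x* and *Alas2*, described further on, were among the genes that differed most between hearts. Each window holds 250 bases before and 50 bases after the transcription start in the RefSeq table of build GRCm38.p6, 5′ to 3′ on the strand of the gene. Capitals mark matches on either strand to 5 motifs. TATAAA is the core to which the TATA-binding protein attaches. AGATAA, which reads TTATCT from the other strand, is a core of sites for Gata1 and its relatives. CCACACCC is a core of sites for Klf1 and its relatives. The others, searched by their usual consensus, were the CArG box, to which serum response factor binds, and the MEF2 site. The motifs were searched separately, and in these 4 windows no 2 matches to different motifs overlap.
*Actc1*, chr2:114052826-114053125, minus strand: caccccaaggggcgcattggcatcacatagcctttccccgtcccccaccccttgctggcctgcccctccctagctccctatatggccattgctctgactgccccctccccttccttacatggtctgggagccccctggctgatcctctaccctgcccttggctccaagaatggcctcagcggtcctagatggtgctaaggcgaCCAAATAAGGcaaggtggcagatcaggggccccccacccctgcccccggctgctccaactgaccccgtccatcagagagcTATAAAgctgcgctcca
*Nppa*, chr4:148000472-148000771, plus strand: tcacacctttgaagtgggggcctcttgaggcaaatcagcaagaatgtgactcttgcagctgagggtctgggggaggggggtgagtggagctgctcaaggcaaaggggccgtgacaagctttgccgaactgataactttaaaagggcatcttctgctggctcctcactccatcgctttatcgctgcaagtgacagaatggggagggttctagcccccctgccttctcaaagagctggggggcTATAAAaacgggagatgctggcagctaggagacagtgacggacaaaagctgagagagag
*Hba-x*, chr11:32276350-32276649, plus strand: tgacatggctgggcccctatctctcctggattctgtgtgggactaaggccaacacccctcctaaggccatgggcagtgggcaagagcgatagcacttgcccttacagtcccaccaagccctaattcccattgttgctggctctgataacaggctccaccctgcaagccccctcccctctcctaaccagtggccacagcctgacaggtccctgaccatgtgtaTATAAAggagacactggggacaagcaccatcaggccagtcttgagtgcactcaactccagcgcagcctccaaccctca
*Alas2*, chrX:150547167-150547466, plus strand: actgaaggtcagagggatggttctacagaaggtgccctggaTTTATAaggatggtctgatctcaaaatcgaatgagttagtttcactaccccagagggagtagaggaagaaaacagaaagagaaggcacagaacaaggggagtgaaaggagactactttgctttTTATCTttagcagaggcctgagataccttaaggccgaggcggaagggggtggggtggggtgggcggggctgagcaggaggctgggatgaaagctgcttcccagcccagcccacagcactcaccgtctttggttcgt

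The *Actc1* window holds a CArG box, CCAAATAAGG, that begins 47 bases before the start, and a TATAAA that begins at base 34 after it. In *Nppa* the TATAAA begins 9 bases before the listed start and in *Hba-x* 28 bases before it. *Alas2* has AGATAA on the opposite strand, beginning 86 bases before the start, and TATAAA on the opposite strand at 209 bases before it. Windows were found for 14453 of the 18194 genes, and a gene with several starts was counted as holding a motif if any of its windows did. TATAAA was in 11.5% of them, AGATAA in 9.53%, CCACACCC in 4.56%, the CArG box in 1.58% and the MEF2 site in 2.51%.

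Among the 34 sarcomere and Z-disc genes with a window, 7 (20.6%) held a CArG box. They were *Acta1*, *Actc1*, *Ldb3*, *Myl3*, *Myl7*, *Myom1* and *Nebl*, with levels from 10.73 to 14.43. A MEF2 site was in 4 of the 34 (11.8%), *Mybpc3*, *Myoz2*, *Synpo2l* and *Ttn*, and TATAAA was in 7 (20.6%). Among all genes with a window the shares were 1.58% for the CArG box, 2.51% for the MEF2 site, 11.5% for TATAAA and 9.53% for AGATAA. In the sarcomere and Z-disc genes AGATAA had the largest share of the motifs searched, in 8 of the 34 (23.5%). These were *Ankrd1*, *Mybphl*, *Myh7b*, *Myl2*, *Mylk3*, *Myom1*, *Nebl* and *Tnnt2*, with levels from 6.22 to 14.40. In the genes above the reference level TATAAA was in 9.06%, and in the genes at or under it in 17.5%. The share did not fall further at the top. TATAAA was in 11.6% of the brightest 1000 genes and in 14 of the 86 with a window among the brightest 100 (16.3%). The median share of G and C bases was 60.7% in the genes above the reference level and 51.8% in those at or under it. These matches describe the letters of the windows and do not show that a factor binds there.

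Contractile genes were read list by list. All 10 measured genes of the thick filament stood above the reference level, with a median of 13.36. *Mybpc3*, which holds myosin heads back, was at 12.98 ± 0.12, *Mylk3*, the cardiac kinase of the regulatory light chain, at 9.82 ± 0.19, and the dimmest was *Mybphl* at 6.22 ± 0.49. All 12 genes of the thin filament were above it too, with a median of 12.11 and *Lmod2*, which adds length to the filament, the dimmest at 9.35 ± 0.30. Of 17 Z-disc and titin genes 16 were above it, led by *Ttn*, the giant spring of the sarcomere, at 13.52 ± 0.10, *Csrp3* at 13.19 ± 0.11 and *Ankrd1* at 12.99 ± 0.18, while *Myot*, a Z-disc gene of skeletal muscle, lay at 3.93 ± 0.082. A share above the reference level is read against the 70.1% of all genes that lie there.

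The fetal heart uses contractile isoforms in pairs whose balance changes with age and chamber, and 50 pairs of paralogs were set side by side, of which 42 could be measured. In 40 of the 42 the first gene differed from the second in the same direction in all 5 hearts, and the median SD of a difference between hearts was 0.18. The differences varied little between hearts, and probe sets of the same gene varied more. In only 24 pairs did each probe set of the brighter gene exceed each probe set of the dimmer gene. These include every pair whose genes have 1 probe set each, such as *Casq1* and *Casq2*, which meets that condition by design. Only 6 pairs differed by more than the 4.34 that separates the widest 10% of probe set pairs of the same gene. Differences below are the first gene minus the second.

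*Myh7* minus *Myh6*, the slow against the fast alpha myosin heavy chain, was 1.24, 0.97, 1.30, 0.68 and 1.34 in hearts 1 to 5, a mean of 1.10 ± 0.28. *Myh7* was thus the brighter in each heart, least so in heart 4. Averaging all probe sets of each gene moved the difference to 3.46, because *Myh6* has a second probe set at 8.50 ± 0.33. The probe set that reads both genes at once was at 13.99 ± 0.10. *Tnni1* minus *Tnni3*, the slow skeletal against the cardiac troponin I, was 1.31, 1.39, 1.13, 1.44 and 1.17, a mean of 1.29 ± 0.14, and the slow skeletal isoform was the brighter in each heart. Each of these 2 troponin genes has 1 probe set.

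*Acta1* minus *Actc1*, skeletal against cardiac actin, was -3.71, -3.80, -4.22, -2.98 and -3.77, a mean of -3.70 ± 0.45. *Acta1*, at 10.73 ± 0.42, varied far more between hearts than *Actc1*, and was highest in heart 4 and lowest in heart 3. *Myl7* minus *Myl2*, the atrial against the ventricular regulatory light chain, was -1.0002, -0.81, -1.12, -0.41 and -1.12, a mean of -0.89 ± 0.30, with heart 4 closest to 0. The essential light chains *Myl4* and *Myl3*, atrial and ventricular, differed by -0.34 ± 0.15. That sign was the same in all 5 hearts, but the difference turned to 0.15 without the probe sets that may cross-hybridize and moved to -4.15 when all probe sets were averaged. *Tnnt1* minus *Tnnt2*, slow skeletal against cardiac troponin T, was -2.01, -3.10, -1.52, -2.39 and -1.95, a mean of -2.20 ± 0.59, and turned to 0.36 when all probe sets were averaged.

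The skeletal muscle paralogs at the far end were close to the reference level. *Tnnc2*, fast skeletal troponin C, was -8.56 ± 0.24 against *Tnnc1*. *Actn3*, the fast fibre alpha-actinin, was -7.17 ± 0.39 against *Actn2*. *Atp2a1*, the fast fibre calcium pump, was -8.01 ± 0.15 against *Atp2a2*, which returns calcium to the sarcoplasmic reticulum in heart. *Ryr1*, the skeletal calcium release channel, lay at 4.56 ± 0.070, under the reference level, against 10.34 ± 0.14 for the cardiac *Ryr2*. Set against the reference level, the brightest probe set of *Ryr2* was brighter by at least 5.50. These 4 pairs, with *Sln* minus *Pln* and *Gja5* minus *Gja1*, are the 6 that exceeded 4.34. In *Atp2a1* minus *Atp2a2*, 4 of 6 combinations of probe sets had the same sign, and in *Gja5* minus *Gja1* 5 of 6 did. When all probe sets were averaged the differences were -3.68 for *Atp2a1*, -3.20 for *Ryr1*, -3.85 for *Gja5* and -7.15 for *Sln*, and those of *Tnnc2* and *Actn3*, whose genes have 1 probe set each, stayed as they were.

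*Pln*, the phosphoprotein that brakes the calcium pump, was at 13.10 ± 0.19, while its atrial relative *Sln* read 6.97, 7.59, 6.22, 7.60 and 7.93. Heart 3 had the lowest *Sln* and heart 5 the highest. The calsequestrins, which store calcium, were 1 of the 2 pairs whose order was not the same in all hearts. *Casq1* minus *Casq2* was -0.42, -0.25, -1.35, 0.78 and -1.05, a mean of -0.46 ± 0.83, so *Casq2*, the cardiac form, was brighter in 4 hearts and *Casq1* in heart 4. Behind this lay *Casq2* itself, at 11.003, 11.03, 11.54, 10.06 and 11.60. At least 1 of the 2 calsequestrin genes has no probe set beside those that may cross-hybridize, so the pair could not be measured without them. The connexin *Gja1*, which couples ventricular myocytes, stood at 12.79 ± 0.14 and *Gja5*, of atria and conduction fibres, at 6.80 ± 0.063. *Nppb* minus *Nppa* was -2.45 ± 0.26, with *Nppb*, the ventricular natriuretic peptide, at 11.30 ± 0.30.

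**Figure D2:**
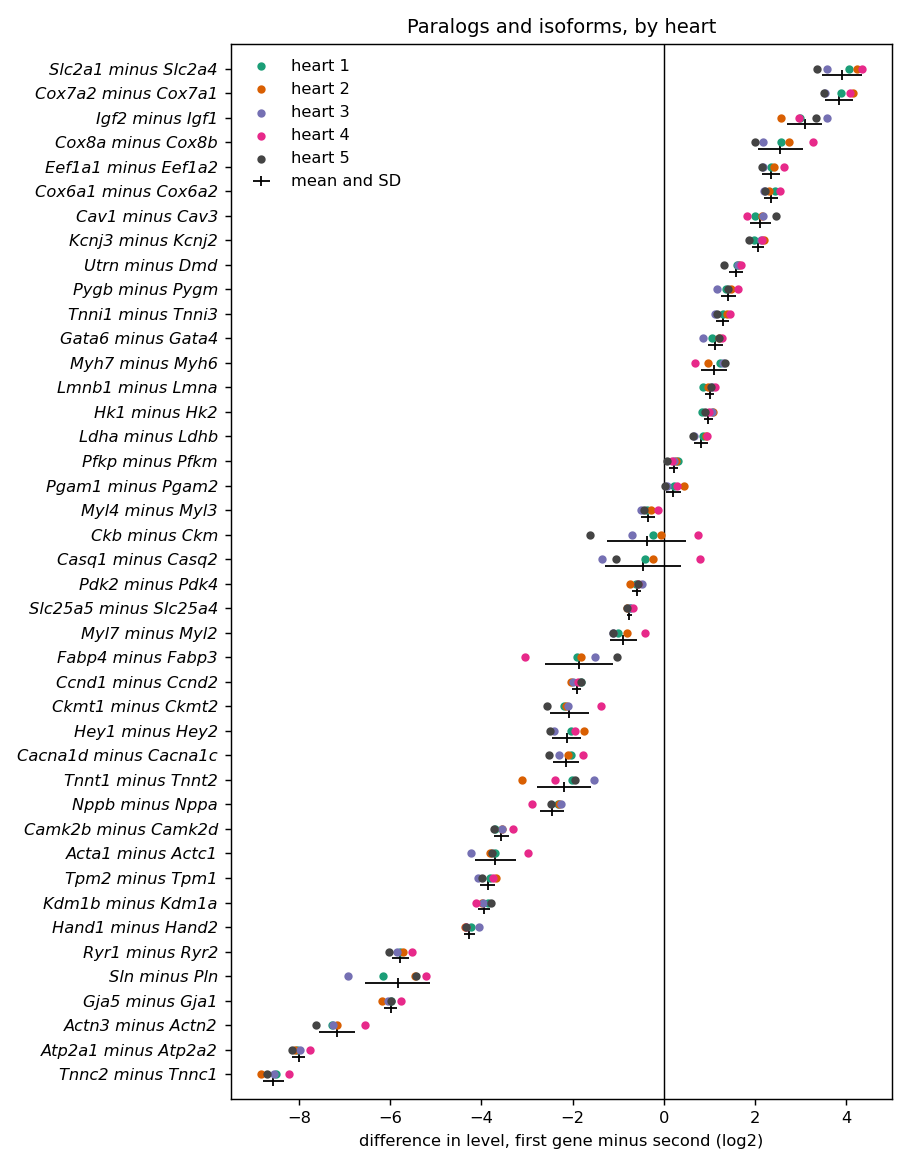
Difference in level between the first and the second gene of each of the 42 measured pairs (x axis, log2) in each of the 5 wild-type hearts (coloured points), with the mean and SD over hearts in black just below them. *Casq1* minus *Casq2* and *Ckb* minus *Ckm* are the 2 pairs whose points fall on both sides of 0, in each case with heart 4 to the right. In 4 pairs (*Ryr1* minus *Ryr2*, *Kcnj3* minus *Kcnj2*, *Ckmt1* minus *Ckmt2* and *Camk2b* minus *Camk2d*) the dimmer gene was not above the reference level, so the points only bound the difference between the brightest probe sets.

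Energy genes were bright as groups. All 34 measured nuclear subunits of oxidative phosphorylation on the list lay above the reference level, with a median of 12.41. Its 3 muscle isoforms of cytochrome c oxidase, *Cox6a2* (11.54 ± 0.18), *Cox7a1* (9.65 ± 0.34) and *Cox8b* (9.49 ± 0.54), lay under that median, and *Cox7a1* and *Cox8b* were the dimmest members. Each was dimmer than its widely expressed partner in each heart. *Cox6a1* minus *Cox6a2* was 2.44, 2.31, 2.19, 2.55 and 2.22, a mean of 2.34 ± 0.15. *Cox7a2* minus *Cox7a1* was 3.84 ± 0.30 and *Cox8a* minus *Cox8b* was 2.56 ± 0.50, the last turning to -0.08 when all probe sets were averaged. The muscle isoforms also had larger SDs than the list's median SD of 0.076. *Cox8b* read 9.47, 9.24, 9.89, 8.72 and 10.10, highest in heart 5 and lowest in heart 4.

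The 24 measured genes of glycolysis and pyruvate use were all above the reference level, with a median of 11.51. After *Gapdh* came *Pgk1* at 13.29 ± 0.051 and *Aldoa* at 13.09 ± 0.13, and the dimmest was *Slc2a4*, the insulin-responsive glucose transporter, at 7.60 ± 0.23. *Slc2a1*, the glucose transporter of fetal tissues, minus *Slc2a4* was 4.06, 4.23, 3.57, 4.35 and 3.35, a mean of 3.91 ± 0.43, and 3.31 when all probe sets were averaged. *Ldha* minus *Ldhb*, the lactate dehydrogenase subunits of muscle and heart, was 0.87, 0.94, 0.67, 0.95 and 0.64, a mean of 0.81 ± 0.15. *Hk1* minus *Hk2* was 0.97 ± 0.10. In all 3 of these pairs each probe set of the first gene was brighter than each of the second. *Pgam1* and *Pgam2*, phosphoglycerate mutases, differed by 0.21 ± 0.17, little more than the spread between hearts.

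The 22 genes of fatty acid uptake and oxidation also lay above the reference level, with a median of 10.55. *Hadh*, which oxidizes hydroxyacyl-CoA, was at 12.43 ± 0.088, *Fabp3*, the fatty acid binding protein of heart muscle, at 12.30 ± 0.33 and *Acadl*, a long-chain acyl-CoA dehydrogenase, at 12.19 ± 0.25. *Ppara*, the nuclear receptor that drives this pathway, was at 5.99 ± 0.30 and *Slc27a1*, a fatty acid transporter, was the dimmest at 5.54 ± 0.065. Energy transfer genes had a median of 12.02, with 12 of 13 above the reference level. Creatine kinase showed no settled order. *Ckb* minus *Ckm*, brain against muscle form, was -0.24, -0.07, -0.70, 0.75 and -1.61, a mean of -0.38 ± 0.87, so heart 4 went against the other 4. Only 1 of 2 combinations of probe sets had the sign of that mean, and with all probe sets averaged it was 2.50, since a second probe set of *Ckm* was at 5.022 ± 0.20. The mitochondrial forms *Ckmt2* and *Ckmt1* were much dimmer, at 6.71 ± 0.39 and 4.64 ± 0.21.

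Genes of growth were bright. Of 29 measured cell cycle genes 28 were above the reference level, with a median of 10.06 and a median SD of 0.082, and the exception was *Tyms* at 4.26 ± 0.072. *Pcna*, the clamp of DNA replication, read 12.44, 12.29, 12.37, 12.42 and 12.51. *Cdkn1c*, an imprinted inhibitor of cyclin-dependent kinases, was at 11.78 ± 0.17 and *Ccnd2*, a D-type cyclin, at 11.76 ± 0.12, while *Ccnd1* minus *Ccnd2* was -1.91 ± 0.10, or -0.62 when all probe sets were averaged. *Mki67*, a marker of cells in cycle, was at 11.24 ± 0.081. Imprinted growth genes had a median of 11.03, with 14 of 15 above the reference level. After *Igf2* came *Plagl1*, a zinc finger regulator of other imprinted genes, at 13.53 ± 0.033 and *Mest* at 13.39 ± 0.11, and the dimmest was *Peg10* at 4.03 ± 0.053. *Igf2* minus *Igf1*, the growth factor that takes over after birth, was 2.99, 2.57, 3.57, 2.97 and 3.35, a mean of 3.09 ± 0.38, and 1.89 when all probe sets were averaged.

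Calcium handling genes had a median of 9.80 and all 17 were above the reference level, from *Atp2a2* at 13.31 ± 0.073 and *Pln* down to *Fkbp1b*, which binds the release channel, at 6.25 ± 0.15. Ion channels and pumps had a median of 7.12, with 14 of 15 above it. They were led by *Atp1b1*, the beta subunit of the sodium pump, at 12.63 ± 0.18, its regulator *Fxyd1* at 11.63 ± 0.19 and the potassium channel subunit *Kcnj11* at 9.32 ± 0.093. *Kcnj2*, of the inward rectifier current that sets the resting potential, lay at 4.24 ± 0.067, under the reference level. Genes of gap junctions and the intercalated disc, where myocytes join, had a median of 10.62 and all 15 were above it, with *Ctnnb1* (beta-catenin) at 12.94 ± 0.070, *Gja1* and *Ctnna1* brightest and *Ctnna3* dimmest at 6.77 ± 0.15. The list of natriuretic and secreted peptides had 11 of 13 above it, the receptor *Ednrb* next after *Nppa* and *Nppb* at 10.43 ± 0.087 and *Nrg1* lowest at 3.91 ± 0.16.

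Of 25 measured cardiac transcription factors, 24 were above the reference level, with a median of 9.05. *Hopx*, a homeodomain protein that does not bind DNA, was brightest at 12.12 ± 0.24, followed by the T-box factor *Tbx20* at 11.52 ± 0.18 and *Mef2a* at 11.19 ± 0.18. *Nkx2-5*, the homeobox factor of the heart lineage, was at 9.63 ± 0.16, and *Tbx2*, a repressor of the early cushions and conduction tissue, was lowest at 4.797 ± 0.23. *Gata6* minus *Gata4* was 1.12 ± 0.17, but only 3 of 6 combinations of probe sets had that sign and the mean over probe sets was -0.33. *Hand1* minus *Hand2* was -4.26 ± 0.12, with 4 of 6 combinations and a mean over probe sets of -1.38, and *Hey1* minus *Hey2* was -2.13 ± 0.32. *Kdm1a* itself read 10.36, 10.34, 10.29, 10.32 and 10.26 in hearts 1 to 5, a mean of 10.31 ± 0.039. Its relative *Kdm1b* was at 6.37 ± 0.12, a difference of -3.94 ± 0.13 that moved to -3.28 when all probe sets were averaged and to -2.61 without those that may cross-hybridize. All 12 measured genes of the Lsd1 list were above the reference level, with the deacetylases *Hdac2* at 10.76 ± 0.050 and *Hdac1* at 10.09 ± 0.11 beside *Kdm1a* as the 3 brightest.

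Markers of the cell types in a whole heart were then compared with markers of tissues beside it. In whole tissue, fewer cells of a type and less RNA per cell cannot be told apart. Ventricular cardiomyocyte markers had a median of 11.20, with *Irx4*, a homeobox factor of ventricles, at 8.34 ± 0.21. Atrial markers had a median of 7.19, with all 12 above the reference level and *Bmp10*, a growth factor, dimmest at 6.09 ± 0.17. Of conduction system markers 8 of 10 were above it, led by *Gjc1* (9.98 ± 0.21), *Irx3* (8.97 ± 0.20) and *Shox2* (6.22 ± 0.54), with the sodium channel *Scn10a* lowest at 4.51 ± 0.19.

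Fibroblast and matrix markers had the highest median of the cell types outside muscle, 10.44, and all 21 were above the reference level, *Col3a1*, *Sparc* (12.58 ± 0.13) and *Col1a2* (12.54 ± 0.28) first and *Mfap5* last at 6.67 ± 0.17. All 20 endothelial markers were above it, median 8.71, from *Cav1* (11.04 ± 0.37), *Fabp4* and the receptor *Tek* (10.27 ± 0.14) to *Robo4* (6.06 ± 0.22). Of endocardial markers 7 of 8 were above it, median 9.18, and of smooth muscle and pericyte markers 13 of 14, median 8.27, from *Acta2*, smooth muscle actin, at 13.12 ± 0.11 to *Myh11* at 4.30 ± 0.32. All 13 epicardial and mesothelial markers were above it, median 7.25, with *Tcf21* at 9.59 ± 0.079, *Upk3b* at 9.11 ± 0.47 and *Tbx18* at 9.05 ± 0.19 brightest and *Msln* dimmest at 6.14 ± 0.26. Valve and cushion markers had a median of 6.76, 14 of 15 above it, from *Postn* (12.21 ± 0.30) and *Vcan* (11.53 ± 0.34) to *Tnmd* (4.26 ± 0.064).

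Immune, platelet and nerve markers were dimmer, while the erythroid list, described further on, had 11 of 13 above the reference level and a median of 7.49. The macrophage and myeloid list had 17 of 19 above the reference level and a median of 5.94, with the receptor *Csf1r* at 9.25 ± 0.13, *Lyz2* at 8.73 ± 0.21 and *Mrc1* at 7.44 ± 0.094. Platelet markers had a median of 5.50 (*Pf4*, 7.67 ± 0.28), glial markers 5.31 (*Erbb3*, 7.01 ± 0.27) and mast cell markers 4.999 (*Kit*, 7.16 ± 0.29). The neuron and ganglion list had 5 of 15 above the reference level, among them *Uchl1* (9.13 ± 0.11), *Gap43* (8.28 ± 0.083) and *Dbh* (6.69 ± 0.17), the last an enzyme of noradrenaline synthesis. That share, like those of the tissues that follow, was under the 70.1% of all genes.

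Tissues that could be carried along in a dissection gave medians close to the reference level. The lung epithelium list had 4 of 10 above it (median 4.64, *Ager* brightest at 6.31 ± 0.25), the liver list 5 of 11 (median 4.82, *Ttr* at 6.52 ± 0.15), the thymus and lymphocyte list 4 of 13 (median 4.68, *Cd4* at 6.31 ± 0.071) and the adipocyte list 4 of 8 (median 4.58), where *Fabp4* is also an endothelial gene. *Alb*, the albumin of liver, was at 4.65 ± 0.18, and *Sftpc*, surfactant protein C of lung, at 5.19 ± 0.17. The skeletal muscle list had 13 of 25 above it, with a median of 4.96. Its brightest members were *Casq1* (10.59 ± 0.26), the light chain *Myl1* (9.86 ± 0.55) and *Tnni2* (9.04 ± 0.25), fast skeletal troponin I, whereas the muscle lineage factors *Myod1* (4.57 ± 0.069) and *Myf5* (3.47 ± 0.039) were under it. The labelled tissue thus held the defining genes of heart muscle at the top of its scale.

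**Figure D3:**
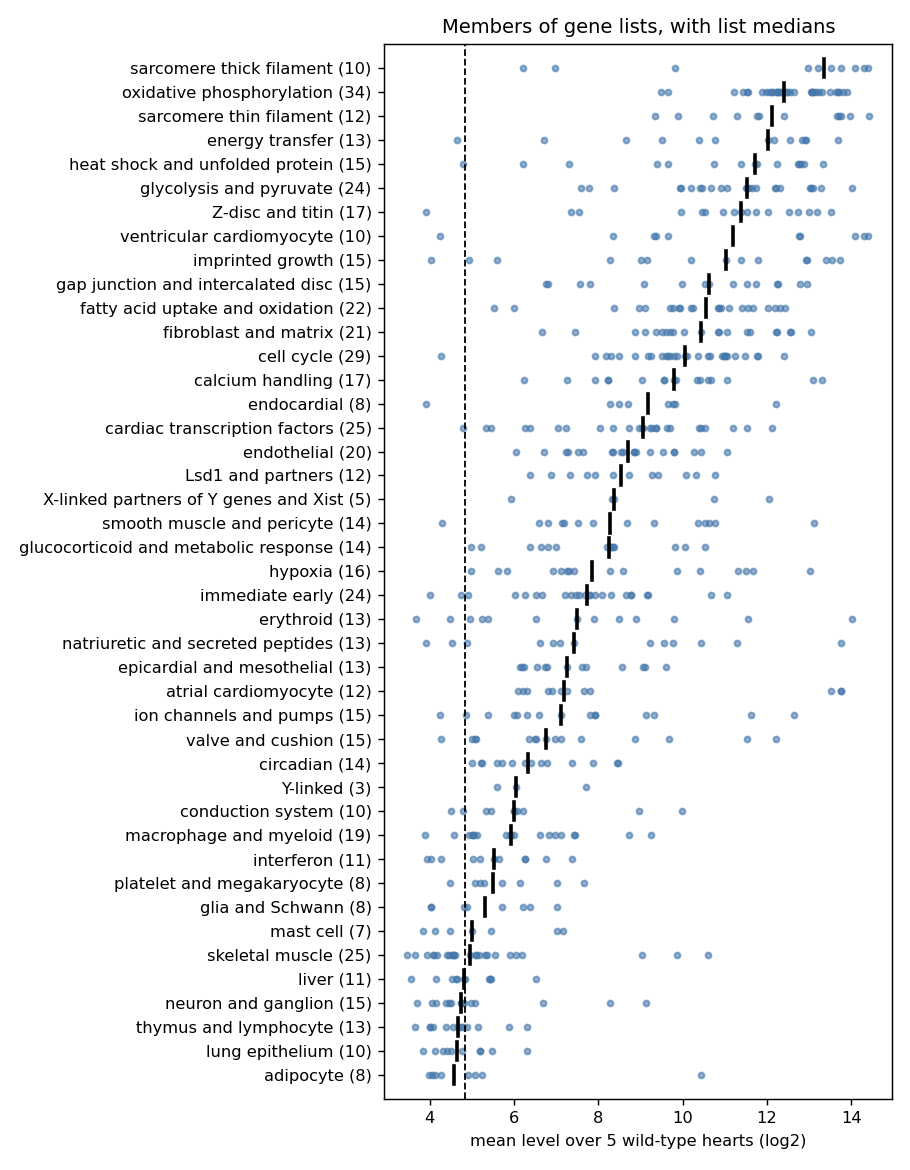
Mean level over the 5 wild-type hearts (x axis, log2) of each measured member (points) of 43 gene lists (y axis, number of measured members in parentheses), sorted by the list's median (black bar). The dashed line is the reference level of 4.84. Sarcomere, energy and heat shock lists lie at the top, and lists of liver, lung, thymus, neuron and adipocyte genes have medians under the line.

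Lists of response genes were read in the same way. The immediate early list had 22 of 24 above the reference level and a median of 7.72, with *Jund* at 11.05 ± 0.11, *Ccn2* at 10.67 ± 0.37 and *Jun* at 9.18 ± 0.13, and *Fosb* at 4.01 ± 0.063. The heat shock and unfolded protein list had a median of 11.72, with the constitutive chaperones *Hspa8* (13.32 ± 0.041), *Hspd1* (12.87 ± 0.027) and *Hspb1* (12.79 ± 0.082) brightest and *Hspa1a*, an inducible form, lowest at 4.79 ± 0.17. The hypoxia list had a median of 7.85, from *Ldha* (13.03 ± 0.073) and *Bnip3* (11.68 ± 0.18) to *Car9* (4.98 ± 0.13). Glucocorticoid and metabolic response genes had a median of 8.25 (*Txnip*, 10.52 ± 0.098), circadian genes 6.34 (*Nr1d2*, 8.46 ± 0.70) and interferon genes 5.54 (*Ifi27*, 7.39 ± 0.13). *Nr1d2*, a clock repressor, read 8.80, 8.98, 7.28, 8.36 and 8.89 and had the largest range of the circadian list.

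The 5 hearts were alike for most genes. The correlation between any 2 of their arrays over all probe sets, which are not independent of each other, was 0.994 to 0.997. Among the 12745 genes above the reference level the median SD between hearts was 0.11, and 87.5% had a range under 0.5. The hybridization controls, bacterial transcripts added to each sample just before hybridization, gave a median SD of 0.055 and at most 0.11 over 18 probe sets. The 6586 genes in the same range of levels had a median SD of 0.099, and 45.0% of them exceeded the largest SD of a control. A range over 1 was found in 239 genes (1.88%) and over 2 in 34. Without heart 4 the first count fell to 146. Bright genes varied least, with a median SD of 0.072 above a level of 12 and 0.12 between 6 and 8. The 10 steadiest genes were *Zfp92*, *Hyi*, *Ubl5*, *Tpt1*, *Snrpd3*, *Rps14*, *Enpp5*, *Rad51ap1*, *Thada* and *Tmsb10*, and *Tpt1* read 14.20, 14.20, 14.20, 14.18 and 14.20.

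**Figure D4:**
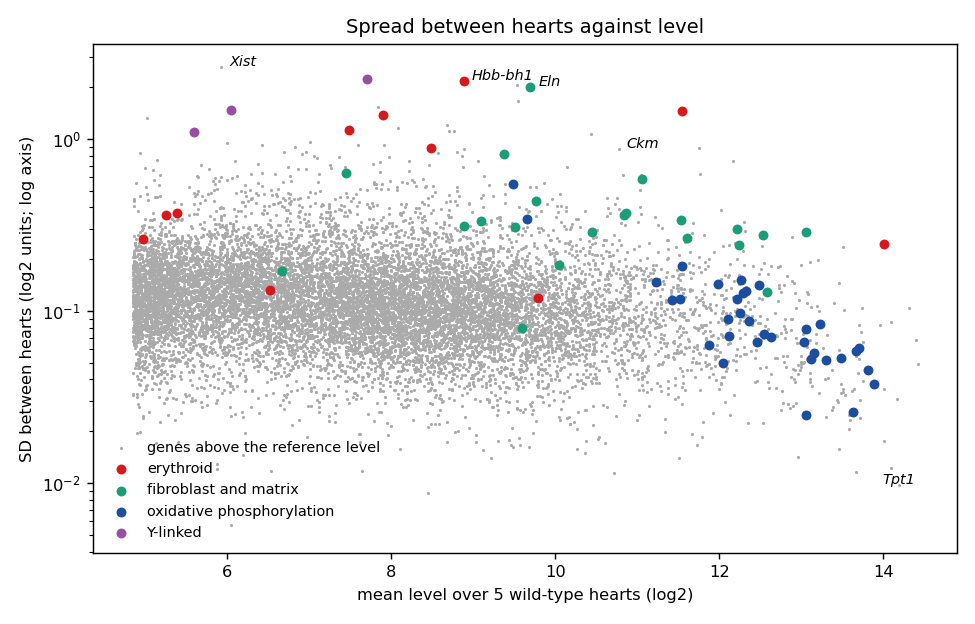
SD between the 5 wild-type hearts (y axis, log2 units on a log axis) against mean level (x axis, log2) for the 12745 genes above the reference level (grey), with erythroid (red), fibroblast and matrix (green), oxidative phosphorylation (blue) and Y-linked (purple) genes. Most oxidative phosphorylation genes lie low at the right, while *Xist* at 2.61 has the largest SD and several erythroid and Y-linked genes exceed 1.

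The largest SDs between hearts were those of *Xist* and *Eif2s3y*, genes of the sex chromosomes. *Xist*, the RNA that silences 1 X chromosome in female cells, read 4.61, 10.59, 4.91, 4.89 and 4.62, so heart 2 stood far above the other 4. The Y-linked *Eif2s3y* read 8.65, 3.72, 8.87, 8.61 and 8.65, *Kdm5d* read 6.91, 3.45, 6.57, 6.46 and 6.82 and *Uty* read 6.30, 3.66, 5.79, 6.06 and 6.17, and in each heart 2 lay under the reference level while the other 4 lay above it. The X-linked partners of these genes were highest in heart 2, which had 11.14 against 10.55 to 10.75 for *Eif2s3x*, 8.78 against 8.07 to 8.36 for *Kdm5c*, 8.92 against 8.07 to 8.36 for *Kdm6a* and 12.20 against 11.93 to 12.04 for *Ddx3x*. Hearts 1, 3, 4 and 5 thus carry the pattern of male tissue and heart 2 that of female tissue. Sex and every other difference between heart 2 and the rest cannot be told apart here.

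Red cell genes also differed widely, though of those named here only *Hbb-bh1* had a larger SD (2.16) than *Fbln5* (2.07), described next. *Hbb-bh1*, an embryonic beta-like globin, read 8.71, 7.18, 8.21, 12.61 and 7.69, and its other 2 probe sets gave 12.29 and 12.07 in heart 4 against 7.10 to 8.66 elsewhere. *Hba-x*, the embryonic zeta-like globin whose promoter is shown above, read 11.47, 9.76, 11.57, 13.79 and 11.15. *Alas2*, the first enzyme of heme synthesis in red cells, read 7.36, 5.93, 8.02, 9.63 and 8.56, and *Slc4a1*, the anion exchanger of their membrane, read 7.04, 6.03, 7.51, 9.15 and 7.70. In all 4 heart 4 was the highest and heart 2 the lowest. The same order was found in *Car2* (8.13, 7.40, 8.48, 9.85 and 8.54), a carbonic anhydrase, *Tent5c* (7.55, 5.64, 7.86, 9.94 and 8.19), *Slc25a37* (7.56, 6.49, 8.18, 8.71 and 8.62), the iron importer of mitochondria, and *Apela* (7.16, 5.72, 6.66, 8.12 and 6.43). Of these only *Car2* is on the erythroid list, and the others are named here for their order of hearts. Of the 11 erythroid list members above the reference level, 10 were highest in heart 4, against 18.6% of all genes above it. The mean deviation of the list's 13 members from their own means was -0.22, -0.67, -0.08, 1.01 and -0.04 in hearts 1 to 5. The adult globin probe sets near the top of the scale spread less, while the dimmest of the 3 for adult alpha globin read 11.41, 9.99, 11.73, 12.69 and 12.12, again highest in heart 4 and lowest in heart 2.

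Another set of genes was lowest in heart 3, and several of them make or bind elastic matrix. *Eln*, elastin, read 11.15, 11.73, 7.07, 10.37 and 8.16, and its second probe set read 9.62, 10.02, 7.35, 8.72 and 7.52. *Fbln5*, which joins elastin to cells, read 10.79, 11.54, 6.61, 10.56 and 8.18, and *Sfrp2*, a secreted Wnt modulator, read 10.51, 11.07, 6.87, 10.20 and 9.05. For these genes hearts 1, 2 and 4 were high and hearts 3 and 5 low, with heart 2 highest and heart 3 lowest. *Rgs5*, a marker of pericytes, read 9.55, 9.60, 6.74, 9.19 and 8.28. Its other 3 probe sets were also lowest in heart 3, but highest in heart 1, at 7.87, 7.51 and 7.44. By the brightest probe sets, heart 2 was also highest and heart 3 lowest in the cartilage-type collagen *Col9a1* (9.31, 9.87, 7.38, 9.5000 and 7.77), the sulfate donor enzyme *Papss2* (9.22, 9.84, 7.33, 9.41 and 7.74), *Ccn3* (6.74, 7.63, 5.24, 6.67 and 5.81), *Cthrc1* (9.30, 9.94, 7.83, 9.21 and 8.12), *Tmem26* (7.17, 7.61, 5.46, 6.95 and 6.27) and the matrix protein *Thbs1* (9.23, 9.67, 7.77, 9.29 and 8.05). The second probe set of *Col9a1* was instead lowest in heart 5, at 6.68 against 6.87 in heart 3. Of the 21 fibroblast and matrix genes 16 were highest in heart 2, against 19.8% of all genes above the reference level, and 10 were lowest in heart 3, against 19.4%. The mean deviation of that list was 0.16, 0.43, -0.32, -0.12 and -0.14 in hearts 1 to 5, and that of the valve and cushion list 0.18, 0.48, -0.41, 0.09 and -0.34. *Col3a1* and *Col1a2*, by contrast in size, had SDs of only 0.29 and 0.28.

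A few more of the 30 most variable genes followed parts of this order. *Car3*, a carbonic anhydrase, read 8.49, 9.06, 7.001, 9.14 and 6.68, *Hapln1*, which ties hyaluronan to proteoglycans in cushions, read 7.95, 8.34, 6.87, 8.42 and 6.36, and *Iigp1*, an interferon-induced GTPase, read 7.10, 7.88, 5.83, 7.999 and 6.25. For these 3 genes, hearts 1, 2 and 4 were again above hearts 3 and 5, but heart 4 was the highest. The other 3 probe sets of *Hapln1* were instead highest in heart 2, at 7.54, 7.39 and 7.27, against 7.51, 7.27 and 7.16 in heart 4. The second probe set of *Car3* was also highest in heart 2, at 6.40 against 6.28, while that of *Iigp1* was highest in heart 4. *Clca3a2* stood apart, at 6.89, 5.90, 3.92, 4.44 and 3.94, with heart 1 highest. Of the 239 genes with a range over 1, 71 (29.7%) were highest in heart 2 and lowest in heart 3, an order found in 6.24% of all genes above the reference level.

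A few other genes were low in heart 4 or high in heart 5. *Ckm*, muscle creatine kinase, read 10.68, 10.35, 11.25, 9.64 and 11.92. *Fabp4*, a fatty acid binding protein of capillary endothelium and fat, read 10.43, 10.34, 11.04, 8.76 and 11.61, and its second probe set read 8.63, 8.51, 9.23, 6.74 and 9.76. *Mb*, myoglobin, which was not among the 30 and was chosen after its values were seen, read 12.31, 11.58, 12.80, 11.23 and 12.91. In each of these heart 4 was lowest and heart 5 highest, with heart 3 second. The second probe set of *Ckm*, near the reference level, was also highest in heart 5 but lowest in heart 2. *Hspb7*, a small heat shock protein of muscle, read 11.80, 11.93, 12.40, 10.25 and 12.41, but its other 2 probe sets had SDs of 0.21 and 0.26 and were lowest in heart 2, so its low value in heart 4 rested on 1 probe set. *Dhrs7c*, a reductase of the sarcoplasmic reticulum, read 5.41, 5.66, 5.80, 5.46 and 7.67, high in heart 5 alone and lowest in heart 1. The order 5 highest and 4 lowest was found in 55 (23.0%) of the genes with a range over 1 and in 8.75% of all genes above the reference level.

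Members of several lists were also lowest in heart 4, by small steps. Of the 34 oxidative phosphorylation genes 26 were lowest in heart 4 and 22 highest in heart 5, against 24.2% and 21.5% of all genes above the reference level. The mean deviation was only -0.13 in heart 4 and 0.11 in heart 5. Of the 22 fatty acid genes 19 were lowest in heart 4 and 17 highest in heart 5, with mean deviations of -0.27 and 0.24. Of the 16 Z-disc genes above the reference level 13 were lowest in heart 4, and of the 20 endothelial genes 16. So were 20 of the 24 genes of glycolysis and pyruvate use and 11 of the 15 genes of gap junctions and the intercalated disc. Heart 4 was also the heart in which 10 of the 11 erythroid genes above the reference level were highest, and the part of red cell RNA in the lower values of other genes was not tested. The opposite was seen in the skeletal muscle list, where 10 of 13 members above the reference level were highest in heart 4, and in the epicardial list, where 9 of 13 were highest in heart 4 and 9 lowest in heart 2. Of all genes above the reference level, 18.6% were highest in heart 4 and 24.4% lowest in heart 2. Genes in a list share cells and regulation, so these counts describe 5 hearts and are not independent observations. The means of the cell cycle and cardiac transcription factor lists moved little, with mean deviations between -0.06 and 0.07. Single transcription factors varied more, with a median SD of 0.18. The median deviation of their list ran from -0.11 in heart 2 to 0.052 in heart 1.

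**Figure D5:**
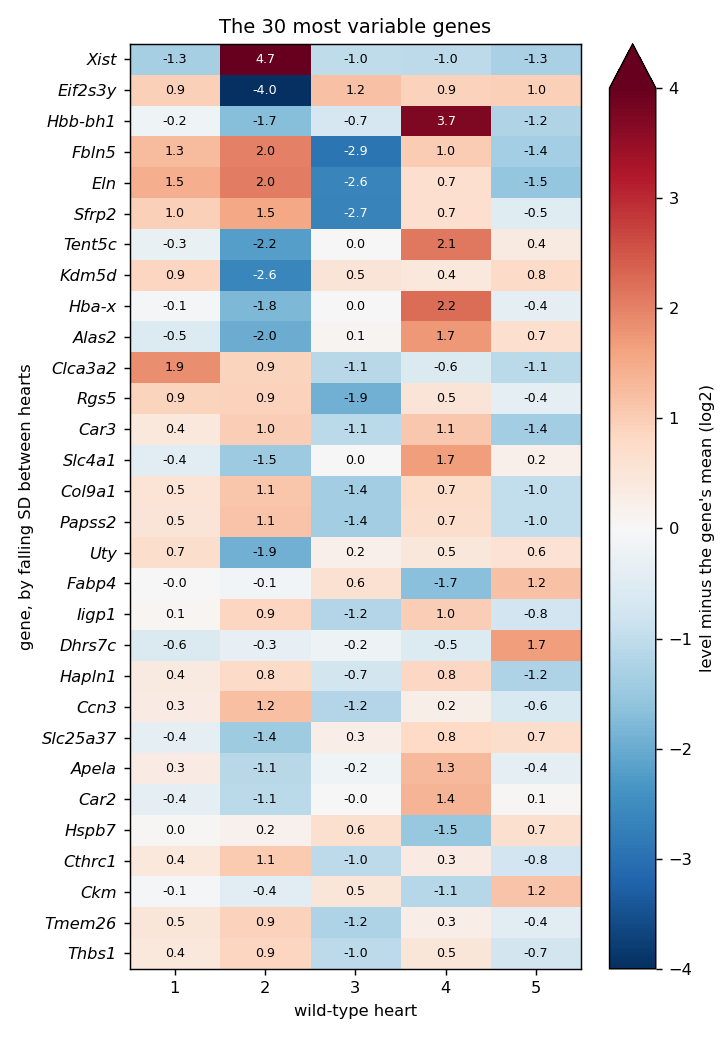
Level of the 30 genes with the largest SD (y axis, sorted) in each of the 5 wild-type hearts (x axis) minus the gene's mean over hearts (colour and printed value, log2). Heart 2 stands apart in *Xist* and the Y-linked genes, heart 4 is highest in the red cell genes, and heart 3 is lowest in *Eln*, *Fbln5* and *Sfrp2*.

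Other probe sets bore on these patterns. Of the 30 most variable genes 16 had at least 1 further probe set above the reference level, 24 in all. The lowest heart was the same as for the brightest probe set in 19 of the 24, the highest heart in 15, and 19 had an SD over 0.5. Measures of RNA quality were compared as well. For the *Actb* controls, the 3′ probe set minus the 5′ one ran from 0.57 in heart 4 to 0.67 in heart 3, and that of *Gapdh* from 0.067 to 0.089, also highest in heart 3. The 5′ probe set for 18S ribosomal RNA ranged from 9.55 in heart 3 to 11.49 in heart 5, the middle one from 6.59 to 7.99 and the 3′ one from 6.64 to 7.83 in the same hearts. Heart 3, the lowest heart for *Eln* and the genes named with it, thus had the highest 3′ minus 5′ differences and the lowest 18S values. Heart 5, also low for *Eln*, *Fbln5* and *Sfrp2*, had the highest 18S values. Its 3′ minus 5′ difference was 0.62 for *Actb* and 0.067, the lowest of the hearts, for *Gapdh*. The part of these measures in the differences between hearts was not tested.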

How the data were processed

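RNA of 5 wild-type hearts was read on 1 Affymetrix Mouse430 array each. The deposited values are log2 levels that the authors had summarized and normalized between arrays by a method that neither the labels nor the paper name. The submitters' processing notes name limma. Array medians lay between 5.03 and 5.10, and no further normalization was applied. Low values depend on how background was treated, and the number of arrays limits the precision. Genes were named through the platform annotation and the RefSeq gene table of GRCm38.p6, in which 99.4% of the probe sets with 1 gene were found. With a single group no test was run, and errors are SDs between separate embryos.

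The genes, 43 lists and 50 pairs were chosen with earlier results of these data known. The rule named the 30 brightest genes, both genes of each pair, the 3 brightest and the dimmest of each list, the 30 genes with the largest and the 10 with the smallest SD above the reference level, and sex-linked genes. Other genes, the promoter motifs and the counts of highest and lowest hearts were chosen after values were seen. Alternatives were an average over a gene's probe sets, no probe sets with suffixes for possible cross-hybridization, the median of the hearts, quantile normalization, median centring, other reference levels, no filter on dim genes and each heart left out. Scripts were tested on simulated data.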

Additional observations from a re-analysis of the deposited data

Results flagged for a closer look

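Of 145 values examined (the 30 brightest and the 30 most variable genes, the 42 pairs and the mean deviation of each of the 43 lists), 15 (10.3%) had 1 heart whose gap to the nearest of the others took up more of the whole range than Dixon's 95% critical value for 5 samples allows. Chance gives such a gap in about 1 of 20 groups, but the share is not to be read against that rate, because the 30 most variable genes were picked for their spread and the list deviations repeat some of the same genes.

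Heart 2 stood alone in sex-linked genes. *Xist* was 10.59 in it against 4.61 to 4.91 in the other hearts. *Eif2s3y* was 3.72 against 8.61 to 8.87, *Kdm5d* 3.45 against 6.46 to 6.91 and *Uty* 3.66 against 5.79 to 6.30. The mean deviation of the Y-linked list was -2.84 against 0.60 to 0.84, and that of *Xist* and the X-linked partners was 1.24 against -0.34 to -0.28.

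Heart 4 stood alone in 6 values. *Hbb-bh1* was 12.61 in it against 7.18 to 8.71, and *Hspb7* 10.25 against 11.80 to 12.41. Among the brightest genes the gaps were small, with *Myl2* at 14.28 against 14.41 to 14.46, *Myh7* at 14.12 against 14.32 to 14.38 and *Gapdh* at 13.95 against 14.01 to 14.04. The mean deviation of the thick filament list was 0.064 against -0.027 to -0.0039. The median deviation of the same list was lowest in heart 4, at -0.11, and 4 of its 10 members were highest and 4 lowest in that heart, so the positive mean rested on a few members.

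Heart 5 stood alone in *Nppa*, at 13.56 against 13.76 to 13.82, in *Dhrs7c*, at 7.67 against 5.41 to 5.80, and in *Utrn* minus *Dmd*, the autosomal relative of dystrophin against dystrophin, at 1.31, under the other hearts, which reached 1.70.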

How the results depend on the processing

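No paired analysis was possible because a single group was described. Among the pair and list values, only the steps that changed the probe sets moved any by more than 1 SD between hearts. With a heart left out, 210 pair values and 215 list values moved by less than that. So did all pairs and lists with the median of the hearts, quantile normalization or median centring. For the pairs, leaving out a heart or taking the median cannot move a mean by 1 SD. Median centring cannot change a difference within an array. For the pairs, these steps therefore cannot show whether the choice of hearts matters less than the choice of probe set.

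When every probe set of a gene was averaged, 20 of 42 pairs moved by more than 1 SD between hearts. The 17 that stayed include each pair whose genes have 1 probe set each, which this step cannot change. Another 5 that had 1 sign in each heart turned, namely *Tnnt1* minus *Tnnt2* to 0.36, *Cox8a* minus *Cox8b* to -0.082, *Slc25a5* minus *Slc25a4* to 0.44, *Pfkp* minus *Pfkm* to -1.99 and *Gata6* minus *Gata4* to -0.33. *Myh7* minus *Myh6* moved to 3.46, *Myl4* minus *Myl3* to -4.15, *Ckb* minus *Ckm* to 2.50, *Ldha* minus *Ldhb* to 1.07, *Slc2a1* minus *Slc2a4* to 3.31 and *Igf2* minus *Igf1* to 1.89, the median SD to 0.095, and 61 of the 100 brightest genes remained. Of the list medians 33 of 43 moved. Without probe sets that may cross-hybridize, *Myl4* minus *Myl3* turned to 0.15 and *Ldha* minus *Ldhb* moved to 0.96. In that step 41 pairs could be measured, and *Casq1* minus *Casq2* could not. Why the probe sets of a gene differ was not tested.

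With no filter on dim genes the median SD was 0.10. The number of genes with a range over 1 was 146 to 232 with a heart left out, lowest without heart 4. The number of genes above the reference level was 9389 with keratin-associated protein genes as the reference and 11247 with the 99th percentile of the receptors.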

Other observations

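Several pairs of isoforms that are exchanged in other tissues or ages had the same order by brightness in each of the 5 wild-type hearts. *Eef1a1* minus *Eef1a2*, the widely used elongation factor against the form of adult muscle and neurons, was 2.35 ± 0.20, with *Eef1a2* at 11.82 ± 0.19. *Pygb* minus *Pygm*, the brain against the muscle form of glycogen phosphorylase, was 1.41 ± 0.16. *Utrn* minus *Dmd* was 1.58 ± 0.15, with 8 of 12 combinations of probe sets of that sign. *Lmnb1* minus *Lmna*, a B-type lamin against the A-type lamins, was 1.01 ± 0.098, or 2.05 when all probe sets were averaged. *Camk2b*, neuronal CaMKII, lay at 4.66 ± 0.081, under the reference level. By the brightest probe sets the cardiac *Camk2d* was brighter by at least 3.39, but only 5 of 7 combinations of probe sets had that order. With all probe sets averaged, *Camk2b* minus *Camk2d* was -1.01. *Cav1* minus *Cav3*, the caveolin of endothelium and fibroblasts against that of muscle, was 2.12 ± 0.24, and *Cacna1d* minus *Cacna1c*, 2 subunits of L-type calcium channels, was -2.14 ± 0.28.

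Other orders were less firm between probe sets. *Slc25a5* minus *Slc25a4*, 2 carriers of ADP and ATP, was -0.76 ± 0.054 with the smallest spread between hearts of these pairs, yet only 20 of 32 combinations of probe sets had that sign and the mean over probe sets was 0.44. *Tpm2* minus *Tpm1* was -3.86 ± 0.17, with 9 of 16 combinations and a mean over probe sets of -1.27. *Pfkp* minus *Pfkm* was 0.21 ± 0.089, with 1 of 3 and -1.99. By the brightest probe sets, *Kcnj3* was brighter by at least 1.46 than *Kcnj2*, which lay under the reference level. Only 3 of 4 combinations had that sign, and the difference over all probe sets was 0.92. *Pdk2* minus *Pdk4*, kinases of pyruvate dehydrogenase with 1 probe set each, was -0.60 ± 0.091.

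By chromosome, 392 of 617 X-linked genes (63.5%) were above the reference level, and 12300 of 17405 autosomal genes (70.7%). Among those above it, the median level was 7.93 on the X chromosome and 7.58 on the autosomes. No test was run on these values.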
